A study of Homo sapiens with 6 samples.

Results

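Retinoic acid is the acid made from vitamin A that acts as a ligand of nuclear receptors, and 9 genes for its synthesis, breakdown, transport and reception were followed here in human colon cell lines with and without depletion of APC. The genes were taken by symbol, whatever their level, and all 9 were found among the 24462 symbols of the count tables. RDH10, ALDH1A1 and ALDH1A3 act in synthesis, while DHRS3 works against it by returning retinaldehyde to retinol. CYP26B1 acts in breakdown, CRABP2 in transport within the cell, and RARA, RARB and RARG are the receptors.

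In cells, retinol from serum is oxidised to retinaldehyde by retinol dehydrogenases such as RDH10, a step that DHRS3 can run backwards, and retinaldehyde dehydrogenases of the ALDH1A family then make retinoic acid in a step that is not reversed. CRABP2 hands the acid to the receptors, which sit on DNA as dimers with RXR proteins and recruit corepressors without ligand and coactivators with it, while CYP26 enzymes clear the acid. In colon epithelium the pathway is known for its part in differentiation, and ALDH1A1 is widely used as a marker of stem and progenitor cells.

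The samples were 3 libraries of 1CT, an immortalized human colonic epithelial cell line that the labels call HCEC 1CT with the genotype WT, and 3 libraries of 1CT-A, the version of the same line depleted of wild type APC, with the genotype APC KD. Both were untreated and grown in the same medium with 2% FBS, EGF, hydrocortisone, insulin, selenite and transferrin. Each genotype is 1 cell line, so that APC depletion and other differences between the lines cannot be told apart. Nothing in the labels says that the replicates were separate cultures, and p-values then measure only the spread between these libraries, which may be technical.

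Reads were counted per gene in QuantSeq 3′-end libraries, with 7788679 to 8452258 counts in a 1CT library and 11158108 to 12602988 in a 1CT-A library. Levels are given as CPM, counts divided by the library's total and scaled alike in every library, and 3 counts, taken as the smallest visible level, corresponded to 0.355 to 0.385 CPM for 1CT and 0.238 to 0.269 CPM for 1CT-A. APC itself was at 49.3, 43.8 and 46.6 CPM in the 1CT libraries and at 31.5, 30.0 and 34.4 CPM in the 1CT-A libraries. Of the 8 epithelial markers examined, EPCAM and VIL1 had no count in any library and CDH1 had at most 4, whereas the keratin KRT18 had 82 to 109 counts in 1CT and 36 to 80 in 1CT-A, and KRT19 had 20 to 34 in 1CT and none in 1CT-A. In a 1CT library 3 to 4 of the 8 were above 3 counts and in a 1CT-A library 1 to 2, and their summed level was 13.4 to 17.4 CPM for 1CT and 3.23 to 7.20 CPM for 1CT-A. All 10 mesenchymal markers were above 3 counts in every library, with a summed level of 44940.5 to 52978.1 CPM for 1CT and 22141.9 to 23562.4 CPM for 1CT-A. Most of that sum was fibronectin, FN1, at 40237.1 to 47280.6 CPM in the one and 17421.4 to 19040.2 CPM in the other. COL3A1, TWIST1 and ZEB1 were higher in every 1CT-A library than in any of 1CT. COL1A1, THY1 and PDGFRB were lower in every 1CT-A library than in any of 1CT, and VIM, CDH2 and COL1A2 overlapped. Of 6 immune and endothelial markers, CD14 and CD68 were above 3 counts in every library. KRT8 had 0 to 14 counts, and KRT20 and CDX2 had at most 1. Of the epithelial markers only KRT18 was thus above 3 counts in every library, and the cells are named only as 1CT and 1CT-A. The part of these markers in the results that follow was not tested.

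The promoters of 4 genes are shown because those of RARB and CYP26A1 hold the letters of the classical response element, and those of ALDH1A1 and ALDH1A3 differ widely in base composition. Any link between promoter sequence and counts was not tested. Each line gives the 250 bases before a RefSeq start site on GRCh38.p14, read 5′ to 3′ on the gene's strand. RARB is on the plus strand at chr3:25428013-25428262, and CYP26A1, a retinoic acid hydroxylase gene induced by its own substrate, is on the plus strand at chr10:93073643-93073892. ALDH1A1 is on the minus strand at chr9:72953054-72953303, and ALDH1A3 is on the plus strand at chr15:100879581-100879830. Capitals mark the DR5 element in RARB and CYP26A1 and the CCAAT box in ALDH1A1 and ALDH1A3.
RARB: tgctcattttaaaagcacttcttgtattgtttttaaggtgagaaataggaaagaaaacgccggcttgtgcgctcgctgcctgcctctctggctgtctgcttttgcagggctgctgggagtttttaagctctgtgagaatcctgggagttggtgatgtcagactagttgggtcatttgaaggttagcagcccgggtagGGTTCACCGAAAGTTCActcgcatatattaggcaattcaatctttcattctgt
CYP26A1: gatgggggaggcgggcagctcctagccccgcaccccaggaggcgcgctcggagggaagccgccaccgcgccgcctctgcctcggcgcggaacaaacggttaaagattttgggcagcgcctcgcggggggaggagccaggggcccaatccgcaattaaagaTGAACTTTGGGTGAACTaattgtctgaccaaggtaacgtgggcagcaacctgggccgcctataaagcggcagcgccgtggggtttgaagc
ALDH1A1: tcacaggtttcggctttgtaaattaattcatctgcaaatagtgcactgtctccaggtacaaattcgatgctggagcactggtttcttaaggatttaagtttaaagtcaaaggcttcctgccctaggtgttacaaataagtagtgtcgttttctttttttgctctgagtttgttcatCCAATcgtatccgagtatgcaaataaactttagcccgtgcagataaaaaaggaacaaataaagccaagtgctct
ALDH1A3: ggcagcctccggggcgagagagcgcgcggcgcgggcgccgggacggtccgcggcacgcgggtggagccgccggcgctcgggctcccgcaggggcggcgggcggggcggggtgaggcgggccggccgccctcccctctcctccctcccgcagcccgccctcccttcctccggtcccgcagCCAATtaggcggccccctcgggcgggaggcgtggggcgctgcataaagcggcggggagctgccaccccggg

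DR5, the direct repeat of a receptor hexamer with 5 bases between the copies, is the classical retinoic acid response element, and DR2 has 2 bases between them. Searched on both strands, a DR5 was found in 1 of 15 windows listed for 8 of the 9 members, the RARB window shown, where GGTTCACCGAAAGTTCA ended 36 bases before the start site. It lay in 0.0740% of all 35116 promoter windows of the same length. CYP26A1 held one on the opposite strand, 73 bases before the start. No member window held a DR2, a repeat found in 0.0313% of all windows. The ALDH1A1 window had 38.4% GC and 6 CpG dinucleotides, and the ALDH1A3 window had 82.4% GC and 38 CpG, so that 1.27% of all windows were richer in GC than that of ALDH1A3 and 10.1% were poorer than that of ALDH1A1. Both held 1 CCAAT on the gene's strand, 69 and 66 bases before the start, a motif found in 32.0% of windows when both strands were read. These matches describe the letters only.

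Between the cell lines, 3 of the 9 members rose in 1CT-A, namely ALDH1A3, DHRS3 and RARA, with Benjamini-Hochberg adjusted values under 0.05 over 12514 genes by the quasi-likelihood test of edgeR. None was called lower, with 0 also at an unadjusted p under 0.05, and DESeq2 and limma-voom called the same numbers. Of all genes tested, 25.0% were called higher and 26.0% lower, beside 3 and 0 of the 6 members tested. With so few members the count is not set apart from that background. ALDH1A1, RARG and RDH10 did not pass the threshold. RARB, CRABP2 and CYP26B1 had too few counts to be tested, which leaves 6 members with a fitted value, of median log2 fold change 0.45, beside -0.01 over all genes tested. The CPM values of the cell lines did not overlap for 4 members that were higher in 1CT-A, all of them tested. They also did not overlap for 1 that was lower, CRABP2, which was not among the genes tested. Of the genes tested, 31.8% and 27.9% did not overlap in these directions, 59.7% together.

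**Figure D1:**
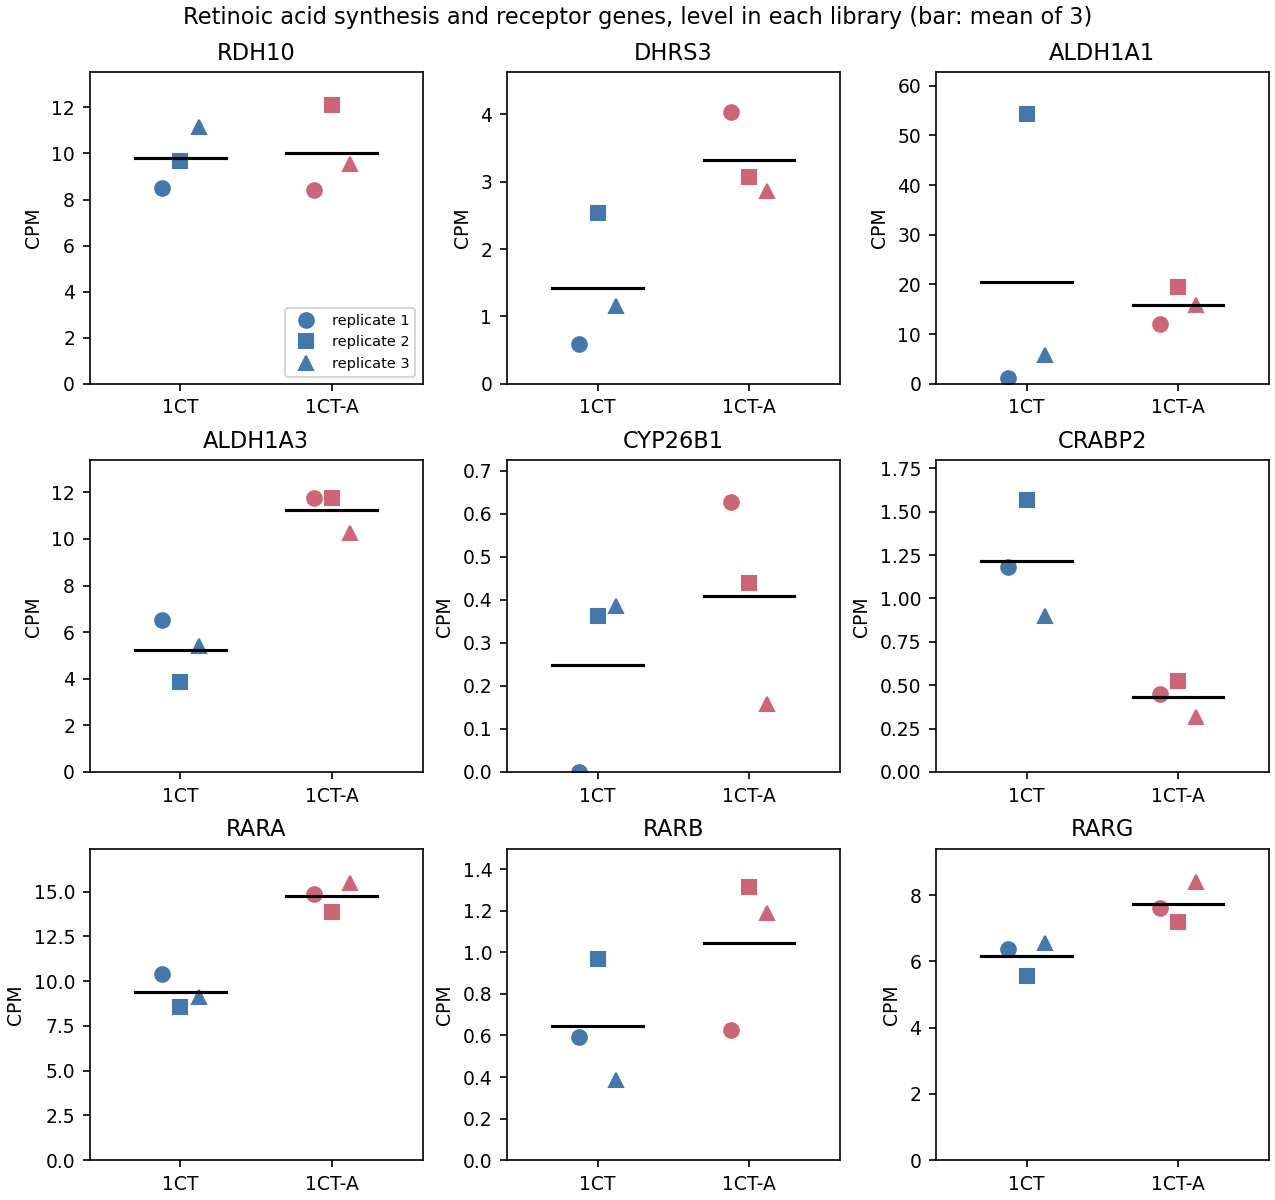
Level of each member in CPM of the library total on the vertical axis, with the 3 libraries of 1CT in blue and the 3 of 1CT-A in red, marker shapes for the replicate number and a bar for the mean of 3 libraries. ALDH1A3, RARA, RARG and DHRS3, higher in 1CT-A, and CRABP2, lower in 1CT-A, do not overlap between the lines. ALDH1A1 runs from 1.18 to 54.3 CPM within 1CT alone.

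RDH10, which makes retinaldehyde from retinol, is annotated on chromosome 8, plus strand, at 73294602 to 73325281 in GRCh38. Its level was 8.52, 9.66 and 11.2 CPM in the 1CT libraries and 8.42, 12.1 and 9.52 CPM in the 1CT-A libraries. The cell lines overlapped throughout, and the log2 fold change of -0.00283 ± 0.17 (SE, edgeR adjusted p = 0.991) took either sign when the scaling or a library was changed. RPL7, a ribosomal protein gene with up to 1085 counts, overlaps RDH10 on the other strand in the annotation, and the strand setting of the counting is not given in the sources used here.

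DHRS3, the reductase that returns retinaldehyde to retinol and that is itself known as a retinoic acid induced gene, is annotated on chromosome 1, minus strand, at 12567910 to 12618210. It had 5, 21 and 9 counts in 1CT, or 0.592, 2.54 and 1.16 CPM, and 45, 35 and 36 counts in 1CT-A, or 4.03, 3.07 and 2.86 CPM. All 1CT-A libraries were above all 1CT libraries, of which replicate 2 was the highest. The log2 fold change was 1.17 ± 0.39 (SE, edgeR adjusted p = 0.0243). The call was lost without 1CT replicate 1 (0.79, edgeR adjusted p = 0.0951) and without 1CT-A replicate 1 (1.01, edgeR adjusted p = 0.0845), and without 1CT replicate 2 the log2 fold change was 1.88.

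ALDH1A3, a retinaldehyde dehydrogenase, is annotated on chromosome 15, plus strand, at 100877714 to 100916626. Its level was 6.51, 3.86 and 5.39 CPM in 1CT and 11.7, 11.8 and 10.2 CPM in 1CT-A. The lines were well apart, with means of 5.25 ± 1.33 and 11.2 ± 0.875 CPM (SD, n = 3). The log2 fold change was 1.05 ± 0.19 (SE, edgeR adjusted p = 4.4e-04), and it stayed between 0.87 and 1.24 when each library was left out in turn. ALDH1A3 was the only member that also passed a stricter rule, at least 2-fold with p under 0.01 before adjustment, whose limits come from the study's methods but whose p is here that of edgeR and not of the test named there.

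ALDH1A1, the other retinaldehyde dehydrogenase of the set, is annotated on chromosome 9, minus strand, at 72900671 to 73080442. It had 10, 450 and 45 counts in the 1CT libraries, or 1.18, 54.3 and 5.78 CPM, and 135, 222 and 199 counts in 1CT-A, or 12.1, 19.5 and 15.8 CPM. The 1CT libraries spanned a 45.9-fold range and enclosed all the 1CT-A libraries, which spanned a 1.61-fold range. Among the 12514 genes tested, 4 had a larger coefficient of variation between the 1CT libraries than the 1.44 of ALDH1A1, where the median gene had 0.113. The log2 fold change over all 6 libraries was -0.41 (standard error 0.71, edgeR adjusted p = 0.655), and without 1CT replicate 2 it was 2.17 (standard error 0.38, edgeR adjusted p = 5.0e-04). With all 6 libraries kept, limma-voom gave 1.05 and a fit with the replicate number as a block gave 0.30, neither past the threshold. No direction can therefore be given for ALDH1A1 over all libraries.

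**Figure D2:**
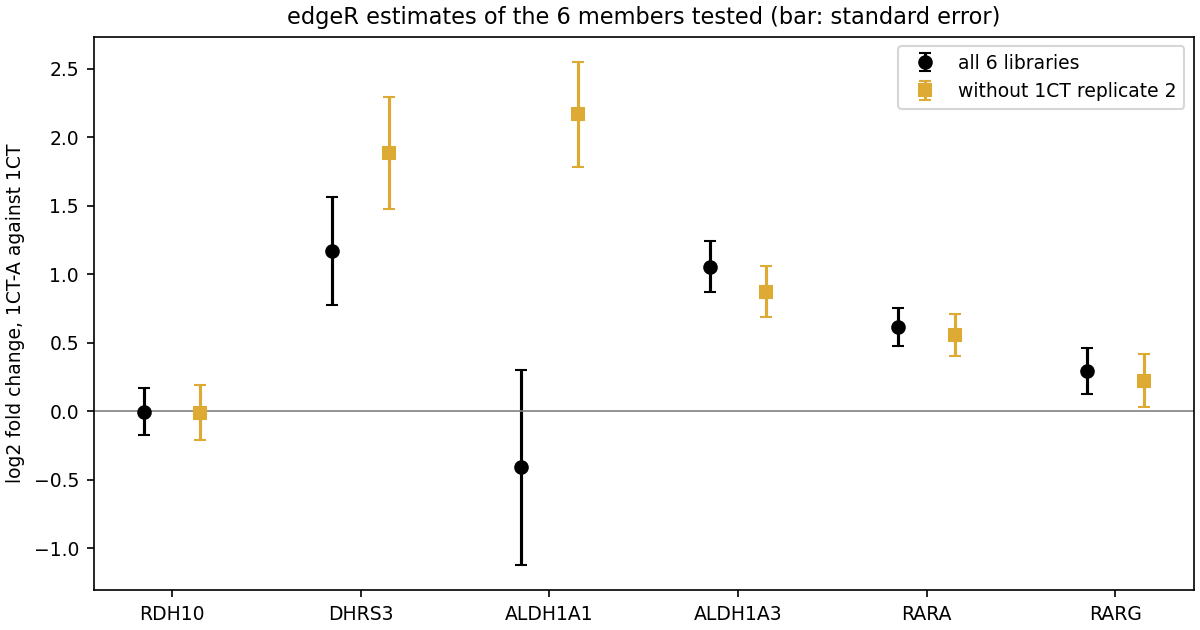
Fitted log2 ratio, 1CT-A over 1CT, on the vertical axis for the 6 members tested, with all 6 libraries in black and without 1CT replicate 2 in yellow, and bars for the standard error. ALDH1A1 turns from -0.41 to 2.17 and DHRS3 goes from 1.17 to 1.88, while RDH10, ALDH1A3, RARA and RARG move by less.

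The library 1CT replicate 2 stood apart in few genes. In 16 of the 12514 genes tested it was at least 4-fold above both other 1CT libraries with at least 20 counts, and ALDH1A1 led them with a 9.40-fold distance to the next library. After it, by the same distance and picked after the values were seen, came ACKR3, a chemokine scavenging receptor, MCAM, a cell adhesion molecule of vessel and stromal cells, FOXQ1, a forkhead transcription factor, and IGFBP5, a binding protein of insulin-like growth factors. ACKR3 had 0, 57 and 7 counts in 1CT and 101, 129 and 134 in 1CT-A. By CPM, all of the 16 genes except ADAMTS19 were also highest in replicate 2 within 1CT-A. The margin there was wide in some, as in COL11A1 (0.358, 3.86 and 0.714 CPM), and narrow in others, as in SALL1 (9.77, 10.1 and 9.60 CPM). No gene met the same rule in 1CT replicate 1, in 1CT replicate 3 or in 1CT-A replicates 1 and 3, and 6 genes did in 1CT-A replicate 2. In the other direction, 1CT replicate 1 was at least 4-fold below both others in 3 genes, of which ALDH1A1 was one, and 1CT replicate 3 in 9 genes.

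ALDH1A1 was chosen for a comparison of patterns after its values were seen. The genes nearest to it over the 6 libraries, by Euclidean distance of centred log2(CPM + 1), were WFDC1, MCAM and IGFBP5, at distances of 1.29, 2.00 and 2.04, where the distance of ALDH1A1 from a flat profile was 3.52. WFDC1, a secreted protease inhibitor of the whey acidic protein family, had 26, 352 and 102 counts in 1CT and 134, 360 and 194 in 1CT-A. MCAM had 5.32, 39.7 and 3.21 CPM in 1CT and 8.07, 33.9 and 12.3 CPM in 1CT-A. In each of these genes replicate 2 was the highest library of both cell lines.

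**Figure D3:**
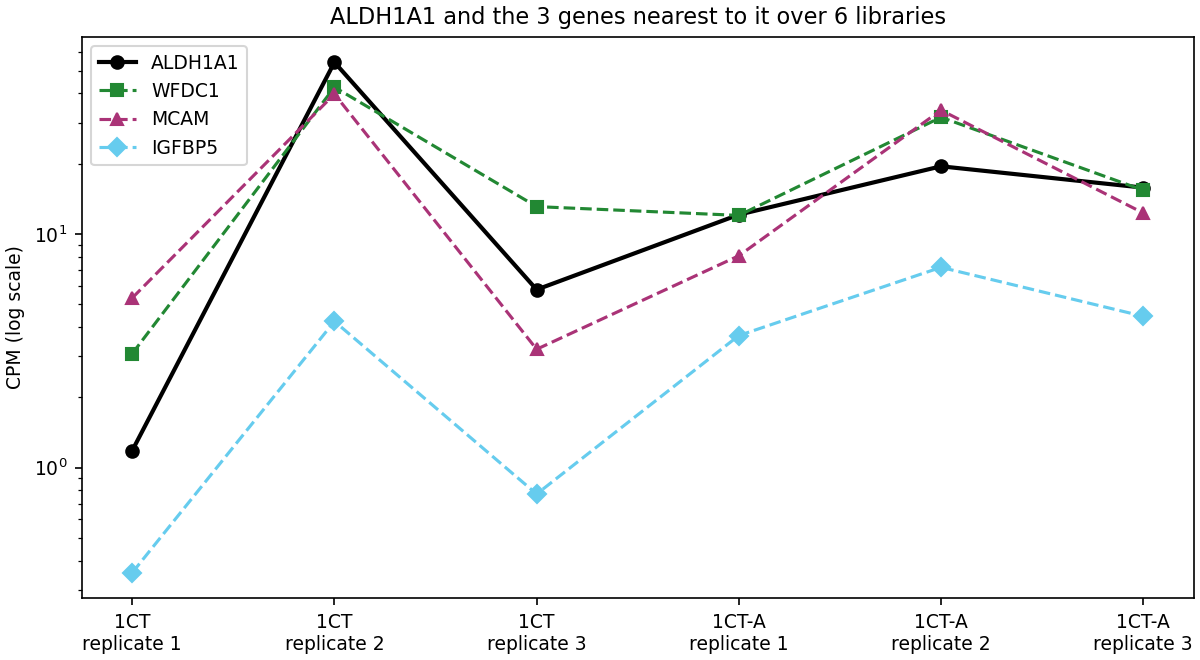
ALDH1A1 (black) and the genes nearest to it, WFDC1, MCAM and IGFBP5, in CPM on a log axis for each of the 6 libraries. Within 1CT all are highest in replicate 2, where ALDH1A1 has 54.3 CPM, and within 1CT-A all are highest in replicate 2 as well.

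Because of the spread of ALDH1A1, the makeup of the ALDH1A counts was unstable in 1CT. ALDH1A3 took 84.6%, 6.64% and 48.3% of the summed counts of ALDH1A1 and ALDH1A3 in the 1CT libraries and 49.2%, 37.6% and 39.3% in the 1CT-A libraries. The ranges overlapped and the means differed by -4.44 percentage points (exact two-sided permutation test, p = 0.8, n = 3). Without 1CT replicate 2 the difference was -24.4 points, and without 1CT replicate 1 it was 14.6. ALDH1A2, the remaining retinaldehyde dehydrogenase of the family, had at most 3 counts in any library.

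CYP26B1, which hydroxylates retinoic acid for clearance, is annotated on chromosome 2, minus strand, at 72129238 to 72147862 and was barely counted, with 0, 3 and 3 counts in 1CT and 7, 5 and 2 counts in 1CT-A. Pooled over libraries and scaled to their totals, the ratio of 1CT-A to 1CT was 1.63, with an exact 95% interval for counting error of 0.588 to 5.17. No difference was detectable at this depth. The other members of the family, CYP26A1 and CYP26C1, had at most 1 count in any library.

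CRABP2, the protein that carries retinoic acid to its receptors, is annotated on chromosome 1, minus strand, at 156699606 to 156705816. It had 10, 13 and 7 counts in 1CT, or 1.18, 1.57 and 0.899 CPM, and 5, 6 and 4 counts in 1CT-A, or 0.448, 0.527 and 0.317 CPM. Every 1CT-A library was below every 1CT library, and the pooled ratio of 1CT-A to 1CT was 0.349, with an exact 95% interval for counting error of 0.174 to 0.669. The exact two-sided permutation test gave p = 0.1, the smallest that 3 libraries against 3 allow. Without the filter on low counts, the log2 fold change was -1.48 ± 0.56 (SE, edgeR adjusted p = 0.0255). That fit took little account of a gene's own spread, as ALDH1A1 had a standard error of 0.14 there and 0.71 in the main fit. Its adjusted p is therefore no support for a fall of CRABP2. The filter let CRABP2 in whenever 1 library was left out, but only through its 1CT counts, as those of 1CT-A were too low. These fits share most of their libraries and admit the gene by its higher group, so they give no added support for a fall. CRABP2 was called lower in 4 of 6 of them, but not without 1CT replicate 2 (-1.31, edgeR adjusted p = 0.0592) or without 1CT-A replicate 3 (-1.33, edgeR adjusted p = 0.0521). The 1CT libraries also held more counts on 399 olfactory receptor symbols, genes that such cells are not known to use, with 13.9 to 18.0 CPM for 1CT and 5.55 to 6.18 CPM for 1CT-A, and their part in the low counts of CRABP2 was not tested.

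Among the receptors, RARA rose while RARG did not pass the threshold. RARA, annotated on chromosome 17, plus strand, at 40309180 to 40357643, is the receptor found in most tissues. Its level was 10.4, 8.57 and 9.12 CPM in 1CT and 14.9, 13.9 and 15.5 CPM in 1CT-A, with no overlap. The log2 fold change was 0.61 ± 0.14 (SE, edgeR adjusted p = 0.0022), and lay between 0.55 and 0.70 whichever library was left out. An antisense gene, RARA-AS1, overlaps it in the annotation and had at most 9 counts.

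RARG, annotated on chromosome 12, minus strand, at 53210567 to 53232980, is the receptor best known from skin. It was at 6.39, 5.55 and 6.55 CPM in 1CT and at 7.62, 7.20 and 8.41 CPM in 1CT-A. The 1CT-A libraries were all above the 1CT libraries, and the log2 fold change of 0.29 ± 0.17 (SE, edgeR adjusted p = 0.163) did not reach the threshold. RARG made up 36.7%, 36.8% and 40.8% of the counts on RARA, RARB and RARG in 1CT and 32.9%, 32.2% and 33.5% in 1CT-A. The share was lower in 1CT-A by -5.23 percentage points, with no overlap (exact two-sided permutation test, p = 0.1, n = 3, the smallest p this design allows). It rested on 125 to 147 receptor counts in a 1CT library and 255 to 316 in a 1CT-A library. Reads are taken near the transcript's 3′ end, so the share is compared only with itself between the lines and does not rank the genes.

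RARB, the receptor gene with the DR5 element shown above and a classical target of its own pathway, spans 24687887 to 25597932 on chromosome 3, plus strand. It had 5, 8 and 3 counts in 1CT and 7, 15 and 15 counts in 1CT-A, or 0.592, 0.966 and 0.385 CPM against 0.627, 1.32 and 1.19 CPM. The lines overlapped, and the pooled ratio of 1.61 had an exact 95% interval for counting error of 0.876 to 3.11, which includes no difference. Without the filter on low counts the log2 fold change was 0.68 ± 0.54 (SE, edgeR adjusted p = 0.338).

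DHRS3 had the largest fitted difference of the members tested, and by the same distance measure the genes nearest to it were CREB3L4, ZFPM2-AS1 and RARRES2, at 0.339, 0.356 and 0.361 from it. CREB3L4, a membrane-bound transcription factor gene, had 2.13, 5.31 and 3.34 CPM in 1CT and 7.35, 7.28 and 7.62 CPM in 1CT-A. RARRES2, which encodes the chemoattractant chemerin and is named as a retinoic acid receptor responder, had 1, 13 and 3 counts in 1CT and 33, 20 and 30 counts in 1CT-A. As in DHRS3, its highest 1CT library was replicate 2. In bulk RNA, fewer cells that express a gene and less of its RNA per cell cannot be told apart, for these genes and for those below.

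The other genes of retinoid uptake, storage and metabolism were mostly silent. Of 34 such genes, 20 had at most 3 counts in every library, among them the retinol transporter STRA6 and the alcohol dehydrogenases ADH1A, ADH1C, ADH4 and ADH7, and 10 were tested. RDH11, a retinaldehyde reductase, rose from 80.5 ± 11.0 to 134 ± 5.10 CPM (SD, n = 3), with a log2 difference of 0.70 ± 0.09 (SE) and an edgeR adjusted p = 3.6e-05. FABP5, a lipid carrier that also binds retinoic acid, rose from 23.9 ± 1.38 to 31.9 ± 0.932 CPM (SD, n = 3). These were the only 2 genes of the list to rise, and 4 fell, counts not set apart from the 25.0% and 26.0% called higher and lower among all genes tested. RETSAT, retinol saturase, fell from 87.3 ± 7.92 to 73.3 ± 2.95 CPM (SD, n = 3), a call that was lost without 1CT replicate 2 or without 1CT-A replicate 1. The other genes that fell were below the level set for naming and are given because they complete the count. BCO2, a carotenoid cleaving oxygenase of mitochondria, went from 64, 71 and 58 counts in 1CT to 7, 4 and 6 in 1CT-A, with a log2 difference of -4.03 ± 0.28 (SE) and an edgeR adjusted p = 1.3e-07. RDH5, a retinol dehydrogenase of the visual cycle, fell by 1.42 on the log2 scale and RDH13, a mitochondrial retinol dehydrogenase relative, by 0.49, a call that was lost with DESeq2 (adjusted p = 0.0889), without the filter on low counts (edgeR adjusted p = 0.0677) and without 1CT replicate 2 or 3 or 1CT-A replicate 2 or 3. Over the 10 genes tested the median log2 fold change was -0.18, beside -0.01 over all genes.

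Of 18 genes for receptor partners, corepressors and coactivators, 16 were tested, 3 rose and 3 fell, with a median log2 fold change of 0.09, where 25.0% of all genes tested were called higher and 26.0% lower, so the counts are not set apart from the background. The partner receptors did not pass the threshold, RXRA at 49.6 ± 3.57 and 56.9 ± 1.20 CPM in 1CT and 1CT-A (SD, n = 3) and RXRB at 16.7 ± 1.21 and 13.7 ± 1.62 CPM, with edgeR adjusted p = 0.138 and 0.0583, and RXRG had no count. TBL1X, a subunit of a corepressor complex of these receptors, rose from 29.1 ± 2.79 to 57.6 ± 1.78 CPM (SD, n = 3), with a log2 difference of 0.95 ± 0.09 (SE) and an edgeR adjusted p = 2.9e-06. TBL1XR1, the paralog of TBL1X, rose by 0.26 and the mediator subunit MED1, a coactivator, by 0.37 on the log2 scale. The coactivators NCOA3 and EP300 fell by 0.46 and 0.34. The call of EP300 was lost with DESeq2 (adjusted p = 0.068), without the filter on low counts (edgeR adjusted p = 0.07) and without 1CT replicate 1 or 2 or 1CT-A replicate 2 or 3, and that of TBL1XR1 without 1CT-A replicate 3. NCOR1 and HDAC3, which act in a complex with TBL1X, had log2 fold changes of -0.09 and -0.10 and did not pass the threshold.

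**Figure D4:**
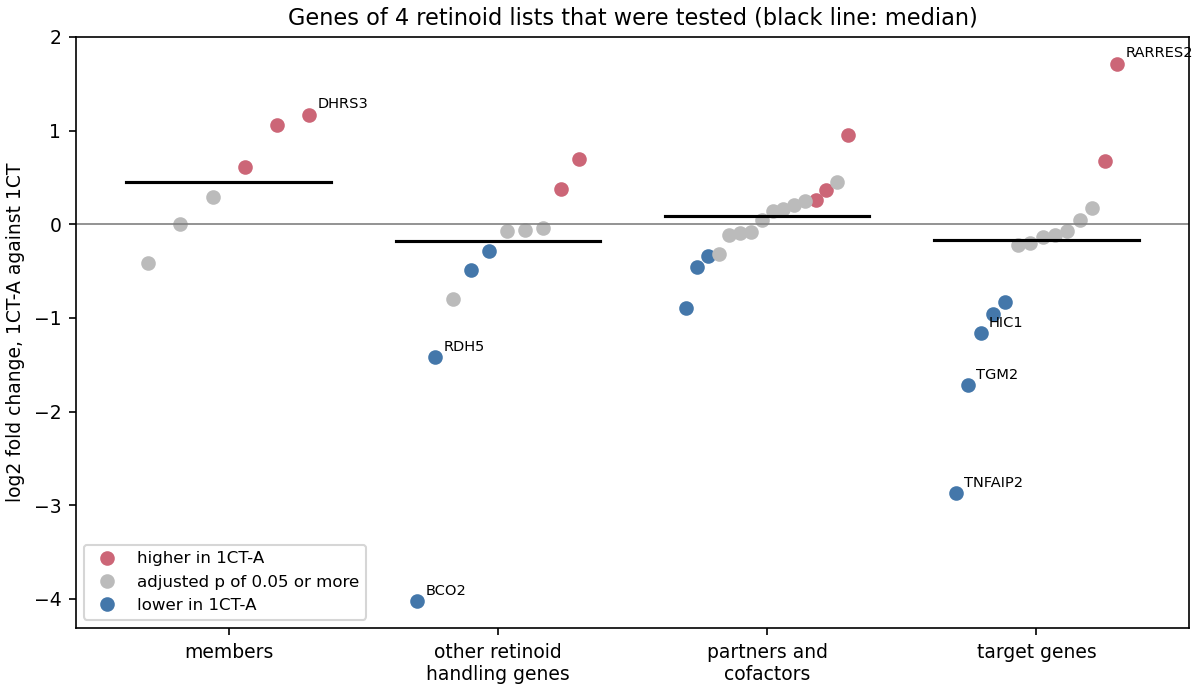
Fitted log2 ratio, 1CT-A over 1CT, on the vertical axis for every tested gene of 4 lists, the members, the other retinoid handling genes, the receptor partners and cofactors, and the target genes, with red for higher, blue for lower and grey for not called at an adjusted p of 0.05, and a black line for the median. BCO2 at -4.03 and TNFAIP2 at -2.88 lie lowest, and the medians are 0.45, -0.18, 0.09 and -0.17.

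Of 24 genes known to respond to retinoic acid in other cells, 14 were tested, 2 rose and 5 fell, with a median log2 fold change of -0.17. Called in either direction were 7 of 14, where 51.0% of all genes tested were, so the count is near the background. TNFAIP2, a gene induced by retinoic acid in leukaemia cells, fell from 51.5, 67.4 and 51.0 CPM in 1CT to 7.53, 8.60 and 7.62 CPM in 1CT-A, with a log2 difference of -2.88 ± 0.13 (SE) and an edgeR adjusted p = 3.2e-09. TGM2, tissue transglutaminase, had 23.2, 45.8 and 26.8 CPM in 1CT, again highest in replicate 2, and 9.23, 12.7 and 8.01 CPM in 1CT-A (log2 fold change -1.72, standard error 0.23, edgeR adjusted p = 4.9e-05). HIC1, a transcriptional repressor, fell by 1.16 and GPRC5A, an orphan receptor found as retinoic acid induced, by 0.84 on the log2 scale. BHLHE40, a basic helix-loop-helix repressor that was below the level set for naming and completes the count, fell by 0.96. HOXA4, a homeobox gene of the anterior to middle part of its cluster, rose from 7.61 ± 0.741 to 12.5 ± 0.839 CPM (SD, n = 3), with a log2 difference of 0.68 ± 0.14 (SE) and an edgeR adjusted p = 0.00165. RARRES2, below the same level, rose by 1.71 (standard error 0.53, edgeR adjusted p = 0.0163), a call that was lost without 1CT replicate 1 or 1CT-A replicate 1, and without 1CT replicate 2 the value was 3.16. CYP26A1, the other gene whose promoter is shown with a DR5, had a single count in each of 1CT replicate 3 and 1CT-A replicate 3 and none elsewhere.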

How the data were processed

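RNA of 3 libraries each of 1CT and 1CT-A was made into QuantSeq libraries from 500 ng of total RNA. The authors deposited raw read counts per gene symbol, whole numbers in 25737 entries per library, not normalized and not pooled. The submitters' processing notes name Bowtie2, edgeR and hg19, without versions, and the counting tool, annotation and strand setting are not given in the sources used here. Counts of 286 repeated symbols were summed, which touched no member. Symbols were placed on GRCh38 with GENCODE, so positions describe that annotation and not the counting.

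Levels are CPM of each library's total. Differences were tested with edgeR 4.0.16 in R 4.3.3, with TMM factors, filterByExpr (10 as its minimum count), quasi-likelihood F-tests between the cell lines and Benjamini-Hochberg adjustment. Alternatives used other scaling, filters and call rules, DESeq2 1.42.0, limma-voom (limma 3.58.1), a replicate block and each library left out. The edgeR, DESeq2, limma-voom and block fits were also run on simulated counts with the same dispersion for every gene. That setting does not cover a spread like that of ALDH1A1 or DHRS3 in 1CT. A robust edgeR fit and the pattern comparison of ALDH1A1 were added after its values were seen. The files hold no molecular identifiers, so intervals and the limit of 3 counts cover counting error only. The members and lists were chosen with earlier results of these data known. Beside the members, up to 6 called genes per list with a mean of at least 10 CPM were named by size of change, together with RXRA, RXRB, CYP26A1 and ALDH1A2, and the 3 genes nearest to the most changed member. Some genes of the lists enter the counts and medians and are not reported here by name.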

Additional observations from a re-analysis of the deposited data

How the results depend on the processing

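The rises of ALDH1A3, DHRS3 and RARA were called under DESeq2's size factors, library size only, no filter, DESeq2, limma-voom, robust edgeR (added after the data were seen) and the replicate block. With at least 10 counts in every library DHRS3 was left out, and 2 to 4 members were called higher with each library left out in turn. Where calls needed 2-fold and p under 0.01 before adjustment, the members called higher were 1, the other handling genes 0 higher and 2 lower, the partners and cofactors 0 higher and 0 lower, and the target genes 1 higher and 3 lower. Without a filter 2 members were called lower, CRABP2 and ALDH1A1, the latter at -0.37 with a standard error of 0.14. In the main fit that standard error was 0.71, so calls made without a filter took little account of the spread of single genes. The members called lower ranged from 0 to 1 with each library left out, the 1 being CRABP2, let in by its 1CT counts. The handling genes called lower ranged from 2 to 5, and the target genes called higher from 1 to 2. The target genes called higher were 1 with at least 10 counts in every library, where RARRES2 was not tested, and library size only gave 5 higher partners and cofactors.

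ALDH1A1 turned to 1.05 under limma-voom, to 0.30 with the replicate block and to 2.17 without 1CT replicate 2, and ranged from -0.97 to 2.17 with each library left out. RDH10, close to 0 throughout, turned to 0.037 with library size only, without a filter (0.043) and without 1CT-A replicate 3 (0.040), to 0.12 without 1CT replicate 3 and to 0.10 without 1CT-A replicate 1, and ranged from -0.15 to 0.12 with each library left out. Apart from what is said of 1CT replicate 2, the cause was not tested. The difference in the share of RARG stayed between -5.92 and -3.89 points with each library left out, and that of ALDH1A3 between -24.4 and 14.6. The replicate numbers are shared by the cell lines, and deviations of same-numbered libraries correlated at -0.161 to 0.22 over 8224 genes. 1CT replicate 2 correlated best with 1CT-A replicate 2, at 0.22, while 1CT replicates 1 and 3 correlated best with other numbers. The main test did not pair the libraries, and whether replicate 2 shares an effect between the lines was not tested. The replicate block changed no call of a member. Of 3 counts or fewer per library nothing can be said on direction.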
